A study of Cavia porcellus with 24 samples.

Results

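Ppp1r2, listed as ENSCPOG00000040784, is 1 of the 18149 genes measured in RNA flushed from the carotid artery of guinea pigs, and its level was followed animal by animal across the 8 groups of the study. The gene was chosen because the study had called it changed by the high fat diet in both arms of the first generation. The values of the F1 animals are therefore a description with no test, as is every comparison in which an F1 animal takes part. Only differences among F2 animals, which that choice did not use, were tested. The fitted models took their estimate of the spread from all 8 groups, F1 included.

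Hartley guinea pig dams (F0) received the full ad libitum ration (PC, 100%) or a restricted one (PR, 70%, raised during pregnancy). Their F1 offspring were kept on control chow (PC-C and PR-C) or given a high fat chow (PC-H and PR-H) for 12 weeks. F1 females that stayed on control chow were bred with unrelated males, and the F2 offspring received the same choice of diets (PC-C-C and PC-C-H in the PC arm, and PR-C-C and PR-C-H in the PR arm). One library of polyadenylated RNA was made from each of 24 animals aged 20 weeks, 3 in each group, after the vessel had been rinsed and its inner surface dissolved with TRIzol. Group names give the F0 arm first and the diet of the animal itself last, and the animal numbers are those of the study. In the F2 groups the middle C stands for the F1 dam's control diet, so no F2 animal had a dam on the high fat diet. The F2 animals of the PR arm were themselves never restricted. The dam of each animal is not given in the labels. The study sought to keep siblings off the same diet, but it had fewer dams than sequenced animals in each arm of both generations. Some animals of each arm therefore share a dam, within or across the diets. The tests treat all animals as independent.

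Protein phosphatase 1 removes phosphate from serine and threonine residues of many proteins. Its catalytic subunits work with a large family of regulatory partners, which direct them to a substrate or keep them inactive. Ppp1r2 encodes inhibitor-2, which binds the catalytic subunit and holds the complex inactive until inhibitor-2 is itself phosphorylated by glycogen synthase kinase 3. In vessels, phosphatase 1 complexes are known to act on myosin light chain and on the translation factor eIF2 alpha. The family has many processed copies in mammalian genomes, and how reads shared by near-identical copies were assigned is not given in the sources used here, so the level of the row can include reads of such copies. A separate gene, Ppp1r2c, carries a related symbol in the RefSeq table. Neither a sequence nor a position for the identifier was available, so none is printed.

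Across the deposited table the reads per library ranged from 14061522 to 31148123. PC-C-H animal 51 is absent from the animal list of the study, in which a library of that group is described as failing quality control. It also had a lower median correlation with the other libraries (r = 0.75, against 0.898 to 0.962 for the other 23), and it was left out of the tests. Besides, 6 libraries stood apart from the other 18 in a score over genes that differed between PR-C and PR-C-C, 125 higher and 177 lower in PR-C-C (2.36 to 2.98, against -0.82 to -0.23): PR-C-C animals 41, 47 and 58, PC-C-C animals 54 and 55, and PC-C-H animal 51. The score is the mean log2 level of the higher genes minus that of the lower genes. It was built on PR-C-C, so for that group it is a description. PC-C-C animals 54 and 55 entered only the estimate of the spread behind it, and PC-C-H animal 51 was not in that fit. All of PR-C-C is among the 6 libraries, so in the F2 PR arm the diet and this division cannot be told apart. The F2 diet results of Ppp1r2 that rest on these libraries are given with and without them wherever a group keeps an animal. F2 responses of other genes are given without a term for these libraries. With such a term, limma called 0 of 13224 genes for the diet in the F2 generation as a whole and 0 in its PR arm. Of 36 markers of endothelial, smooth muscle, fibroblast, immune and red blood cells only 4 could be tied to an identifier, and none of the 11 endothelial markers was among them, so the labelled cell type was not checked here. Identifiers got names only from the study's lists of changed genes, so a marker outside those lists could not be found. In RNA of a whole flush, fewer cells of a type and less RNA per cell cannot be told apart.

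Ppp1r2 was well covered, with 9689 to 33196 reads in each of the 23 libraries. Counting error was at most 1.02% of a value, far less than the differences between animals of 1 group given next. The values are given as normalized counts, which are reads divided by the size factor of the library.

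In the F1 animals of fully fed dams on control chow (PC-C), Ppp1r2 had 12368 normalized counts in animal 13, 16315 in animal 27 and 13837 in animal 28. The PC-H animals had 19439.6 (animal 11), 31934 (animal 21) and 25973 (animal 34), so the lowest animal on the high fat diet lay above the highest control. The study's animal list notes that animal 34 changed to a mix of diets during feeding, and its value was the middle one of the group. In the PR arm, PR-C animals 17, 25 and 36 had 16815, 9550.4 and 15060.1, and animal 25 was the lowest of the whole series. PR-H animals 16, 23 and 31 had 26390.2, 24778 and 29283, all above the 3 PR-C animals.

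In the F2 generation, PC-C-C animals 52, 54 and 55 had 14598, 14242 and 15322 normalized counts, the tightest group of the study. PC-C-H animals 50 and 53 had 24408 and 19879.7, and both exceeded every PC-C-C animal. PC-C-H animal 51 had 13769, below all 3 PC-C-C animals, and is the only animal on the high fat diet with a value in the range of the controls. PR-C-C animals 41, 47 and 58 had 17185, 12932 and 11569.6. PR-C-H animals 43, 46 and 59 had 24258, 29201 and 25168, with no overlap between the groups.

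**Figure D1:**
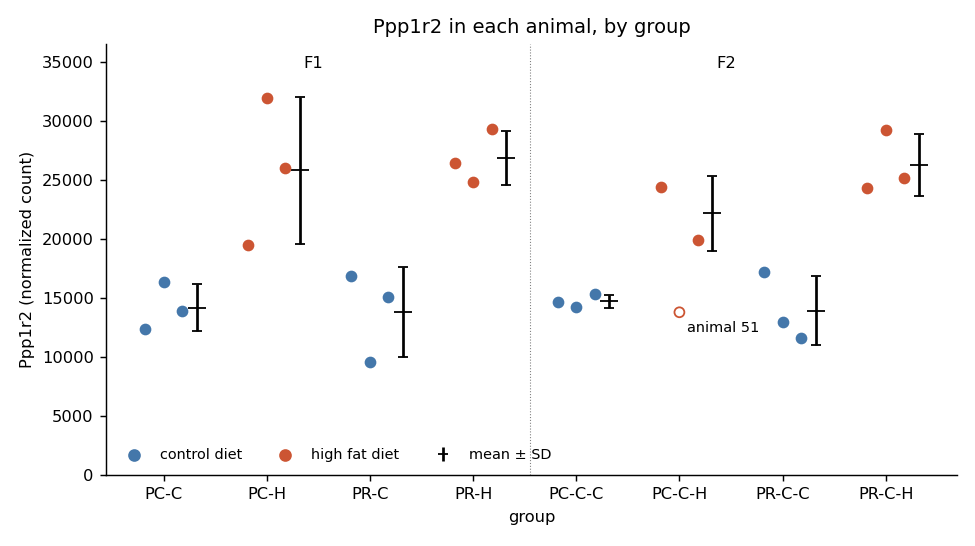
Ppp1r2 in each animal (normalized count, y axis) for the 8 groups (x axis), with blue points for control and red points for high fat diet animals; the bar beside each group is its mean ± SD, and the open point is PC-C-H animal 51, which is left out of the mean. The 11 filled red points lie between 19439.6 and 31934, all above the 12 blue points, which reach 17185.

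The means fell into 2 tiers that followed the diet. PR-H was highest, with 26817 ± 2283 normalized counts (SD, n = 3), then PR-C-H with 26209 ± 2631 (n = 3), PC-H with 25782 ± 6249.6 (n = 3) and PC-C-H with 22144 ± 3202 (n = 2). The control groups followed, with 14720.4 ± 550.4 in PC-C-C, 14173 ± 1995 in PC-C, 13896 ± 2929 for PR-C-C and lastly 13808 ± 3790.4 for PR-C (n = 3 each). PC-C-H and PC-C-C were the only neighbours in this order whose animals did not overlap, with a gap of 7423 normalized counts, 2.32 times the larger SD of the pair. The other 6 gaps were at most 0.582 of the larger SD, and those neighbours did not differ beyond their spread.

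The spread within groups was uneven. The coefficient of variation was 3.74% in PC-C-C and 8.51% in PR-H, but 24.2% in PC-H and 27.4% in PR-C. On the log2 scale the residual SD of Ppp1r2 was 0.26 over the 23 animals, and of 274 genes with a mean of 10000 to 40000 normalized counts, 104 varied more (median 0.23). Of the 6 females in the tests, 5 lay above the mean of their group, with deviations of -0.08 to 0.32 on the log2 scale.

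Over both generations the 11 animals on the high fat diet had a median of 25168 normalized counts and the 12 controls a median of 14419.7, and the ratio of the means was 1.80. Every animal on the high fat diet exceeded every control, which 4 of 13224 genes (0.0302%) did over the same 23 animals. The 23 animals include the F1 animals on which Ppp1r2 was chosen, so this share is a description and no support. In those F1 animals 15 genes (0.113%) had this separation. In the F2 animals alone it was found for 278 genes (2.1%), so in that generation the separation by itself was not rare. With animal 51 counted, Ppp1r2 does not have it.

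The other 3 genes that separated the 23 animals were Abcg1, Mylip and Srebf1. Abcg1 exports cholesterol from cells, Mylip encodes the ligase that marks the LDL receptor for degradation, and Srebf1 encodes a transcription factor of fatty acid synthesis. Like Ppp1r2, they are on the list of genes that the study called in both F1 arms. Unlike Ppp1r2, these 3 were also reported by the study as shared by all its diet comparisons, those of the F2 animals included. Their distance between the diets was wider: the lowest animal on the high fat diet exceeded the highest control 1.94 times for Abcg1, 2.03 times for Mylip and 1.89 times for Srebf1, against 1.13 times for Ppp1r2.

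Among F1 animals, the PC-H level of Ppp1r2 was 1.79 times that of PC-C (log2 difference 0.84, SE 0.20) and the PR-H level 1.99 times that of PR-C (0.99, SE 0.20), without overlap in either arm. Groups without overlap and higher on the high fat diet were found for 6.81% of genes in PC-C vs PC-H and 4.76% in PR-C vs PR-H. Across both arms the F1 diet response was 0.92 (SE 0.14), a fold of 1.89. The response of the PR arm exceeded that of the PC arm by 0.15, less than the SE of that difference (0.29).

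The F2 comparisons ask whether the diet also moved Ppp1r2 in the next generation, in libraries that had no part in the choice of the gene. The F1 libraries still entered the estimate of the spread in the fitted models, so those tests are not fully separate from that choice. Ppp1r2 rose on the high fat diet in the F2 generation as a whole, by 0.76 on the log2 scale (SE 0.15, 95% interval 0.44 to 1.07), a fold of 1.69 (interval 1.36 to 2.10, adjusted p = 0.00664, limma over 13224 genes). In this comparison 386 genes (2.92%) were called higher, and 619 (4.68%) were called in either direction. An exact two-sided permutation of the diets within each arm gave p = 0.005, the smallest that its 200 labellings allow, and 0.01 after adjustment over 2 tests. In the same F2 animals 278 genes (2.1%) had every animal on the high fat diet above every control, as Ppp1r2 did. The permutation takes no account of the libraries that stand apart. DESeq2 gave an adjusted p of 0.000111 and edgeR's quasi-likelihood test one of 0.00924. With limma fitted to the F2 groups alone, the SE was 0.12 and the adjusted p 0.0108.

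With PC-C-H animal 51 included the mean F2 response was 0.64 (adjusted p = 0.0682, limma), and without PC-C-H animal 50 it was 0.68 (adjusted p = 0.0507), both on the other side of the threshold. With a term for the libraries that stand apart it was 0.77, and its adjusted p was 0.819 (limma). That fit called 0 of 13224 genes in this comparison. The exact test kept an adjusted p of 0.01 to 0.04 with animal 51, under each scaling and without any single animal.

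In the F2 PR arm Ppp1r2 was 1.91-fold higher in PR-C-H than in PR-C-C (log2 difference 0.93, SE 0.20, 95% interval 0.51 to 1.35, adjusted p = 0.0162, limma), where 209 genes (1.58%) were called higher and 345 (2.61%) in either direction. The 3 animals of each group did not overlap, which held for 12.8% of genes in this direction. DESeq2 gave an adjusted p of 0.000836. The limma call was lost without PR-C-H animal 46 or 59 or PR-C-C animal 47 or 58, at log2 differences of 0.81 to 0.96, and with animal 51 in the model, at an adjusted p of 0.0917. It was also lost with a term for the libraries that stand apart (0.95, adjusted p = 0.999). Without those libraries PR-C-C has no animal, and the comparison has no value.

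In the F2 PC arm the log2 difference was 0.58 (SE 0.23, 95% interval 0.11 to 1.05), a fold of 1.50, and it was not called over all genes (adjusted p = 0.530, limma; 0.322, DESeq2). One gene, Mylip, was called there, 0.00756% of those tested, while 12.5% of genes had no overlap between the 3 controls and 2 high fat diet animals in this direction. PC-C-C animal 52, the control of this arm that does not stand apart, had 14598 normalized counts and lay between animals 54 and 55. Against animal 52 alone the difference was 0.59 (SE 0.32), and with animal 51 counted as PC-C-H it fell to 0.36. The diet response of the PR arm exceeded that of the PC arm by 0.35 (SE 0.30, 95% interval -0.28 to 0.98, adjusted p = 1.00, limma), and a difference between the F2 arms was not shown.

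Depth moved with the diet among the F2 animals: the 6 controls had 14061522 to 26006336 reads and the 5 animals on the high fat diet 25557093 to 31148123. The ranges met only around PC-C-C animal 52, which had 26006336 reads and 14598 normalized counts of Ppp1r2. The libraries nearest to it in depth were those of PR-C-H animal 59 (25557093 reads, 25168 normalized counts), PR-C-H animal 46 (26339864 reads, 29201) and, in the same arm, PC-C-H animal 53 (26963929 reads, 19879.7). In the F1 animals the depths overlapped widely, from 22163509 to 27162017 reads in controls and from 24030113 to 28823878 on the high fat diet. The part of depth in the F2 difference was not tested.

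**Figure D2:**
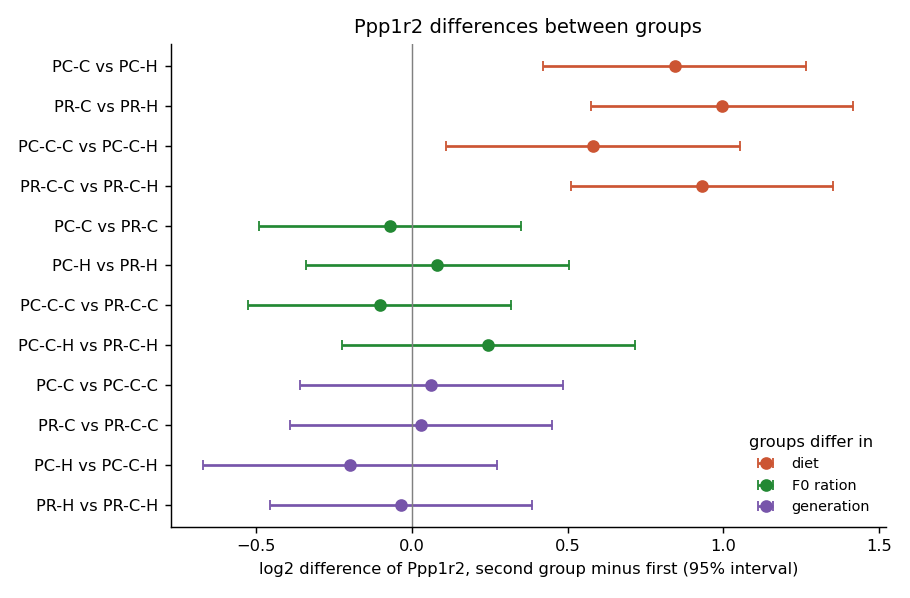
Log2 difference of Ppp1r2 (x axis, second group minus first, with 95% intervals from limma) for 12 comparisons of groups (y axis), coloured by what differs between the groups. The 4 diet differences lie between 0.58 and 0.99 and the 8 differences in F0 ration or generation between -0.20 and 0.25; where F1 animals take part, the intervals show the error of the fit and are no test.

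No difference in Ppp1r2 by F0 ration was detected. Among F2 animals, PR-C-C differed from PC-C-C by -0.10 (95% interval -0.52 to 0.32, adjusted p = 0.993, limma) and PR-C-H from PC-C-H by 0.25 (-0.22 to 0.72, adjusted p = 1.00, limma). The exact two-sided permutation of the ration within each diet gave a mean difference of 0.07 with p = 0.58. limma called 0 genes in these 2 comparisons and in the difference between the F2 diet responses, with 615, 289 and 349 genes at an unadjusted p under 0.05; edgeR called 0 in each, and DESeq2 21, 16 and 23, without Ppp1r2. In the F1 animals the same differences were -0.07 on the control diet and 0.08 on the high fat diet. The F2 intervals span folds of 0.695 to 1.25 on the control diet and 0.856 to 1.64 on the high fat diet. With 2 or 3 animals a group, differences within those intervals are not excluded.

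Differences between the 2 generations were each smaller than their SE in the main fit, which does not show that the levels are alike. On the control diet, PC-C-C differed from PC-C by 0.06 and PR-C-C from PR-C by 0.03 on the log2 scale. On the high fat diet, PR-C-H differed from PR-H by -0.03 and PC-C-H from PC-H by -0.20 (-0.42 with animal 51 counted). Their SE was 0.20 each, and 0.23 for PC-H vs PC-C-H, and no test was made because F1 animals take part.

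Among all 13224 genes 512 (3.87%) had a larger F2 increase than Ppp1r2. Of the 132 genes with at least its mean normalized count, itself included, 5 had a larger increase, a share close to that of all genes. Of the same 132, limma called 5 higher and 2 lower. Over all genes 2.92% were called higher and 4.68% in either direction, so these counts are near the background.

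**Figure D3:**
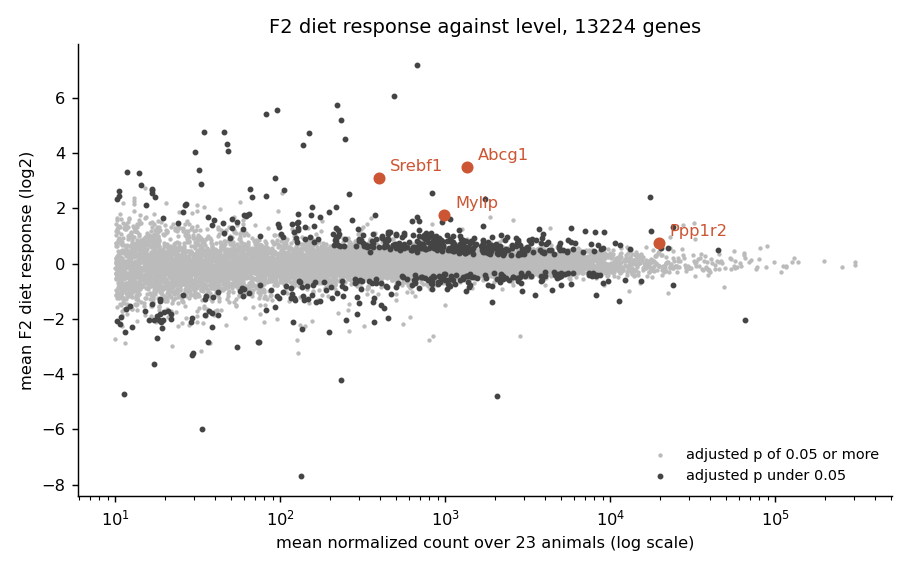
Mean F2 diet response (y axis, log2 difference, high fat minus control) against the mean normalized count (x axis, log scale) for 13224 genes; dark points had an adjusted p under 0.05 with limma, and the 4 genes in red separated all 23 animals by diet. Ppp1r2 lies at 0.76 at a mean of 19587 normalized counts.

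The genes that the study had found in both F1 arms behaved unequally in the F2 animals. Of 8 such genes 7 could be identified and 6 tested. Of the 6, limma called 5 higher in the F2 generation as a whole, the same 5 in the PR arm and Mylip alone in the PC arm. The shares of all genes called higher were 2.92%, 1.58% and 0.00756%. All 6 had a positive log2 difference in the PC arm, called or not. With a term for the libraries that stand apart, limma called 0 genes in the F2 generation as a whole and 0 in the PR arm. Since the list was chosen on the F1 animals, its F2 values are the ones given. Abcg1 rose by 3.49 on the log2 scale (adjusted p = 0.000216, limma), from 157 to 360 normalized counts in the controls to between 2292 and 3114 on the high fat diet. Srebf1 rose by 3.09 (adjusted p = 0.000335, limma) and Mylip by 1.77 (1.16e-05). Scd1, the desaturase that makes monounsaturated fatty acids, rose by 1.53 (adjusted p = 0.00707, limma). Ackr3, a scavenger receptor for chemokines, had log2 differences of 1.59 in the PC arm and -1.21 in the PR arm and was not called (adjusted p = 0.766 for the mean). The response of Ppp1r2, at 0.76, was the smallest of the 5 called higher.

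The sterol and lipid genes among them, Abcg1, Srebf1, Mylip and Scd1, were also the 4 tested members of a list of 14 such genes, and no other member could be tied to an identifier. Names came only from the study's lists of changed genes, so members that did not change had little way to enter. The calls of these 4 therefore follow in part from that source. The names of the 12 protein folding genes had the same source. Of 12 protein folding genes limma called 0 in the F2 generation, in either arm or in the mean of both, where 4.68% of all genes were called in the mean, so a count of 0 is near the background. Their median response was -0.01, and 5 of the 12 were positive. Hspa8, the constitutive cytosolic chaperone, was the member nearest to Ppp1r2 in its pattern over the 23 animals (r = 0.66) and had a mean F2 difference of 0.31 (adjusted p = 0.408, limma). In F1 the differences of Hspa8 had been 1.03 in the PC arm and 0.68 in the PR arm.

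The partners of inhibitor-2 could not be followed. Of 43 genes listed for catalytic subunits, inhibitors, targeting subunits of phosphatase 1 and kinases of inhibitor-2, Ppp1r2 was the only one with an identifier, and the other 42 are not analysed here. Those 42 were not on the readable part of the study's lists of changed genes, the only source of names.

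Over the 23 animals the gene whose log2 level ran most closely with that of Ppp1r2 was ENSCPOG00000009387, which had no name (Pearson r = 0.88, Spearman rho = 0.81), among 11229 genes with a mean of at least 50. Its F2 response was 2.55 (adjusted p = 0.00118, limma). Next came Abcg1 (r = 0.87), Mylip (0.87), Srebf1 (0.84) and Scd1 (0.83), and then Samd4a (0.82), a regulator of mRNA translation. These 6 were the only genes at or above 0.8. With Spearman's rho 4 of the first 5 kept their place among the first 5, and 4 did so without the libraries that stand apart. The points share their libraries and fall into 2 clusters by diet, so the pooled r includes the difference between the diets. Within the 12 controls r was 0.77 for ENSCPOG00000009387, 0.32 for Abcg1, 0.14 for Mylip and -0.11 for Srebf1. Within the 11 animals on the high fat diet it was 0.21, 0.15, 0.17 and 0.63 in the same order.

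A different set of genes ran with Ppp1r2 among animals of the same group. After the group means were subtracted, ENSCPOG00000010873 (r = 0.91) and ENSCPOG00000031496 (r = 0.89) were nearest, and 87 genes reached 0.8. Of the 100 nearest genes by each measure, 3 were shared. ENSCPOG00000010873 had F2 log2 differences of 0.10 in the PC arm and 0.07 in the PR arm, both uncalled (adjusted p of 0.981 and 0.925, limma). The named genes nearest within groups were Dync1li1 (r = 0.70), Akap11 (0.68), Tshz1 (0.58), Arid1b (0.56) and Arhgef10 (0.55). Dync1li1 encodes a light intermediate chain of dynein, Akap11 an anchoring protein for protein kinase A, and Tshz1 a zinc finger transcription factor. Over all 23 animals their r was 0.54, 0.04, -0.09, 0.23 and 0.11. The named genes with the lowest r over the 23 animals were Oplah (-0.63), Hars2 (-0.59) and Casp2 (-0.57). With 23 animals and 8 group means removed these values carry a wide error, and they are a description of these libraries. The named genes were drawn only from the study's lists of changed genes.

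**Figure D4:**
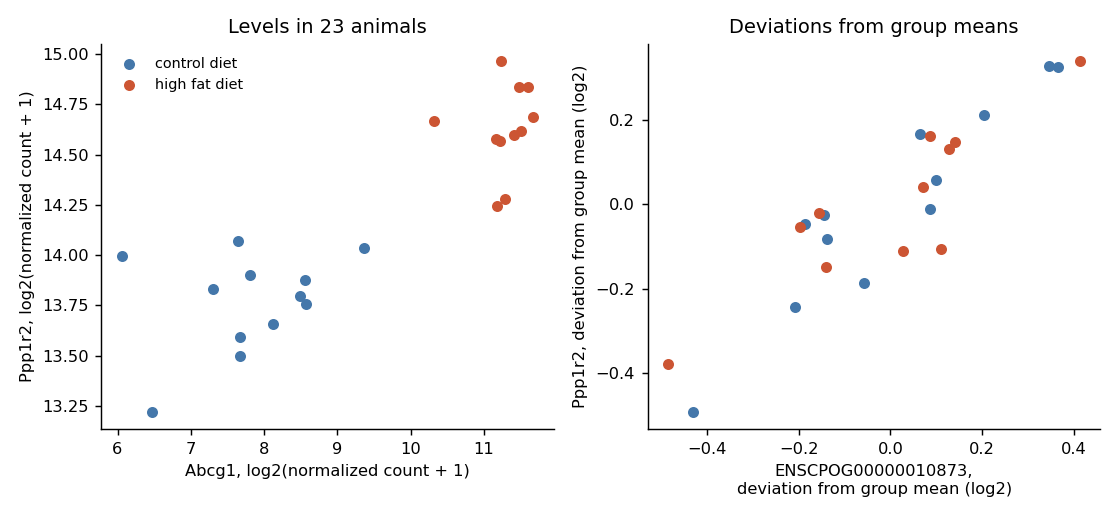
Left, Ppp1r2 (y axis) against Abcg1 (x axis), both as log2 of the normalized count plus 1, in 23 animals coloured by diet. Right, the deviations of Ppp1r2 (y axis) and ENSCPOG00000010873 (x axis) from their group means on the log2 scale; the left panel holds 2 separate clusters (r = 0.87 in all, 0.32 in controls and 0.15 on the high fat diet), while on the right both diets lie along 1 line (r = 0.91).

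Markers of other cell types gave few values, and only those on the study's lists of changed genes could be identified. A difference in such a marker is therefore not independent of that choice. Scx, a transcription factor of tendon and fibroblast lineages and the only 1 of 6 fibroblast markers identified, also moved with the diet. It had 635 to 1282 normalized counts in F1 controls and 1437 to 2428 in F1 animals on the high fat diet. In the F2 animals it had 310 to 958 in controls and 888 to 1455 on the high fat diet, a mean response of 0.99 (adjusted p = 0.0197, limma). Its deviations from the group means ran against those of Ppp1r2 (r = -0.53). The 3 immune markers identified of 8, Fcmr, Pou2af1 and Siglec1, summed to 15.96 to 63.5 in F2 controls and 19.4 to 81.3 in F2 animals on the high fat diet, and Pou2af1 and Siglec1 were at 0 in at least 1 animal of each F2 diet. In F1 the sums were 1.03 to 39.1 in controls and 22.1 to 692 on the high fat diet. The part of such cells in the level of Ppp1r2 was not tested.

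**Figure D5:**
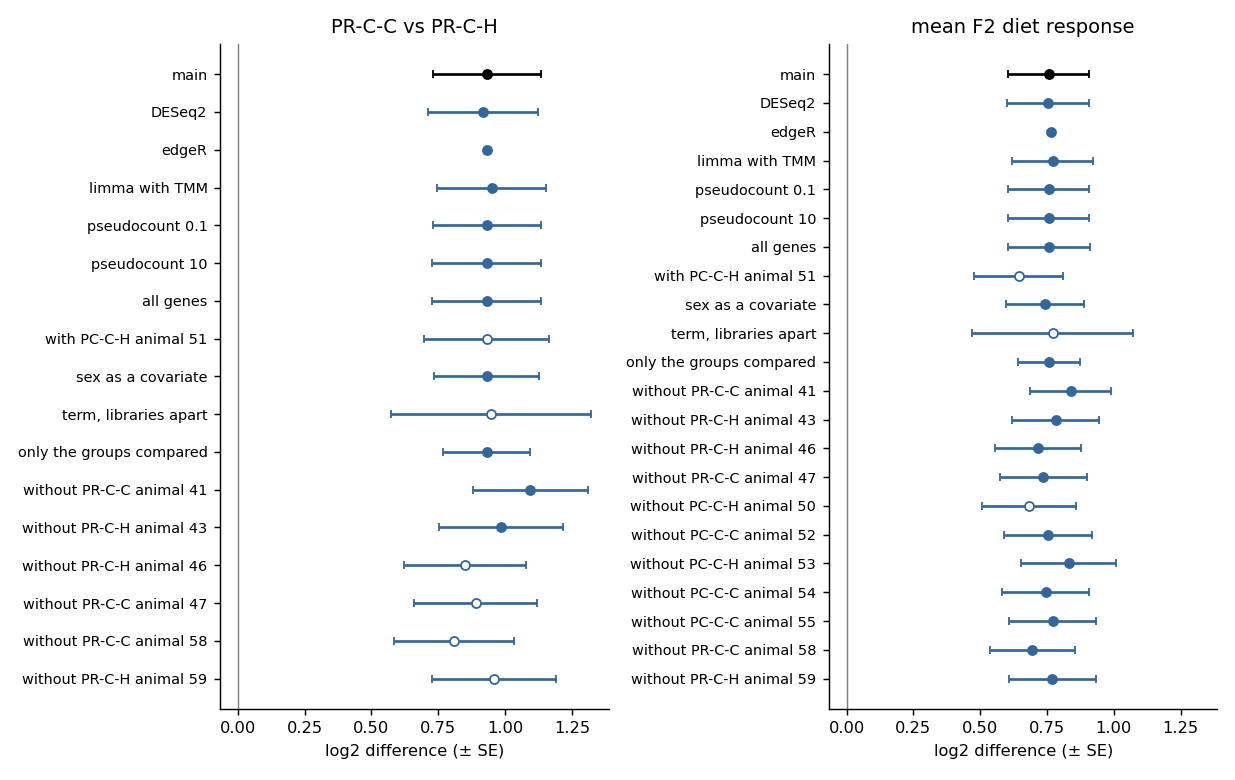
Log2 difference of Ppp1r2 (x axis, ± SE where the tool gives one) for PR-C-C vs PR-C-H (left) and for the mean F2 diet response (right) under each setting (y axis), with filled points for an adjusted p under 0.05 and open points otherwise. The difference stays between 0.81 and 1.09 on the left and between 0.64 and 0.84 on the right, while 6 and 3 of the settings lose the call.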

How the data were processed

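The RNA was sequenced in 24 libraries. Per the labels, the authors used FastQC, Trimmomatic, STAR and DESeq2, for quality control, trimming, alignment and analysis; versions, genome build, annotation and read counter are not given in the sources used here. The deposited table holds signal values, in which the read count of each gene has been scaled by the library's DESeq2 size factor: 100% of them were whole multiples of the step of their column within 0.001, and size factors estimated again differed by at most 4.3e-15 in relative terms. All RNA had an integrity number above 5. Reads were recovered from these steps for DESeq2 and edgeR. They carry no molecular identifiers, so counting errors cover counting only.

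limma 3.58.1 (R 4.3.3) was fitted with an intensity trend to log2(normalized count + 1), which slightly understates changes of low genes, for 13224 genes with a mean of at least 10. Means of 8 groups entered 1 model of 23 libraries (15 residual and 5.17 prior degrees of freedom), adjusted over genes by Benjamini-Hochberg with a threshold of 0.05. The design named edgeR for raw counts; the table held normalized ones, so limma was used. PC-C-H animal 51 was left out, and groups follow the sample labels. DESeq2 1.42.0, edgeR 4.0.16 (which tested 15077 genes), TMM scaling, other pseudocounts, all genes, only the groups compared, sex, a term for or removal of the libraries apart, and each animal left out were alternatives. The steps were tested on simulated data. Names came from the partly readable lists of changed genes that the study gave for its comparisons of groups (147 identifiers). A RefSeq table matched 0. Genes outside those lists had no name here, so counts among named genes are not free of that choice. No 2 columns were identical.

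Genes were named by a rule: Ppp1r2, identified members of 12 lists, the 5 genes and 5 named genes with the highest correlation in each of 2 measures, and the 3 named genes with the lowest. The gene, lists, alternatives and libraries apart were chosen with earlier results of these data known.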

Additional observations from a re-analysis of the deposited data

How the results depend on the processing

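Of 136 tested differences computed under other settings, 124 kept their direction and their side of the threshold, 9 lost the call and 3 changed sign. Of 180 differences with no test, in which F1 animals take part, 11 changed sign, 10 of them with 1 animal left out (to values between -0.22 and 0.18), all in ration, generation or interaction differences. All 125 diet responses, tested or not, were positive. Those of the F1 animals had their sign from the choice of the gene. All of them are refits of the same animals, so their number is no separate support. The log2 difference of PR-C-C vs PR-C-H was 0.93 with animal 51 (adjusted p = 0.0917, limma) and 0.95 with a term for the libraries that stand apart (adjusted p = 0.999); with 1 animal left out at a time it ranged from 0.81 to 1.09. The mean F2 response was 0.64 with animal 51 (adjusted p = 0.0682, limma), 0.77 with that term (adjusted p = 0.819) and 0.68 to 0.84 with 1 animal left out. The cause of these losses was not tested, apart from the larger SE with the term (0.37 and 0.30 against 0.20 and 0.15). Over all alternatives but single animals left out, the adjusted p ranged from 0.000836 to 0.999 and from 0.000111 to 0.819. PC-C-C vs PR-C-C, not called, ranged from -0.27 to 0.02 with 1 animal left out and was positive only without PR-C-C animal 58 (0.019). The exact test of the F2 ration, not called, ranged from -0.01 to 0.15 and was negative without PR-C-C animal 41 (-0.010) and PC-C-H animal 53 (-0.0025). Where leaving out 1 animal leaves 1 in PC-C-H, it is assumed to vary like the other groups. Genes called by limma, DESeq2 and edgeR numbered 345, 682 and 284 for the diet in the F2 PR arm, 1, 48 and 2 in the F2 PC arm, and 619, 1019 and 562 for the mean F2 response. No paired analysis was possible because the groups share no animal number and the labels give no litters. Counting error was at most 1.02%, so the number of animals, not depth, limits the precision.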
